A study of Mus musculus with 2 samples.

Results

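The mitochondrial calcium uniporter is the channel by which calcium enters the mitochondrial matrix, and 7 genes of its complex and of the exchangers beside it were described here in mouse heart: Mcu, Mcub, Smdt1, Micu2, Micu3, Letm1 and Slc8b1. They were taken by gene symbol from a list drawn up with earlier results of these data known, and are 7 of the 55536 genes of the GENCODE M21 annotation of mm10. Total RNA of heart was sequenced in 1 group of 2 libraries, from female B6CASTF1/J mice aged 14 days, and each library took 300 ng of RNA and was spiked with ERCC standards. The animals are first-generation hybrids of C57BL/6J and CAST/EiJ, whereas mm10 is a C57BL/6J assembly, and the treatment of CAST/EiJ reads was not given in the sources used here. In the labels both libraries carry the same donor entry, and the tissue of replicate 1 is described as 3x Females 03 and that of replicate 2 as Female 04. The SD given below (n = 2) is the spread between these libraries and may be technical in part. Since the series has a single group, no statistical test was made.

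The pore of the uniporter is built from MCU, a protein of the inner mitochondrial membrane, and MCUB is its paralog, which lowers the current where it replaces MCU. EMRE, the small protein encoded by Smdt1, holds the pore in its active form in animals and ties it to the gatekeepers. The gatekeepers MICU2 and MICU3 bind calcium with EF-hands in the intermembrane space. MICU2 helps to keep the pore shut at low calcium, and MICU3, known mainly from nervous tissue, enhances uptake. Calcium leaves the matrix through NCLX, the sodium-calcium exchanger encoded by Slc8b1, and LETM1 is an inner membrane protein of cation and proton exchange. In cardiomyocytes matrix calcium speeds the dehydrogenases that feed the respiratory chain, and an overload of it opens the permeability transition pore.

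The libraries held 36197643 and 34358598 expected counts in annotated genes. The heart label was checked against markers of cardiomyocytes, of which 6 of 6 were detected, with medians of 5007 TPM (replicate 1) and 5327 TPM (replicate 2), and 0 of 6 past the size used below for a difference between libraries. TPM is an abundance of transcripts scaled to length and to the sum of the library, and it is taken from the deposited gene tables (the first quantification) unless said otherwise. Markers of other cells were measured as well: the 5 fibroblast genes had medians of 168 and 172 TPM, the 4 endothelial genes 59.7 and 58.6, the 5 macrophage genes 9.75 and 7.07, and the 3 red blood cell genes 10905 and 8286. The 3 markers of airway epithelium summed to 149.7 TPM in replicate 1 and 9.25 in replicate 2, and all 3 were past that size. In tissue libraries fewer cells of a type and less RNA per cell cannot be told apart, which holds for every level below.

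The pore paralogs are shown at the codons of their selectivity filter, the stretch that lines the mouth of the channel, to show how far the coding bases of Mcu and Mcub differ around a shared motif. Each run is 60 coding bases inside exon 6 of 8 of the transcript named, and capitals mark the 12 bases that encode the filter motif (aspartate, isoleucine, methionine, glutamate), starting at residue 260 of the 350 of Mcu-202 and residue 255 of the 345 of Mcub-201. The Mcu run lies at chr10:59454991-59455050 and the Mcub run at chr3:129916984-129917043, both on the minus strand of mm10, and both were read from the GENCODE M21 transcripts.
Mcu-202: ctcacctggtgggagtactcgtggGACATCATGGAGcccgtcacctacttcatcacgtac
Mcub-201: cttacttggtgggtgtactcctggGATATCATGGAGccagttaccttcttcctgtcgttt
The runs are identical at 47 of 60 bases and differ at 1 of the 12 capitals. The whole proteins, translated from these transcripts, are identical at 41.0% of 344 aligned residues, and the longest run of bases that the transcripts share is 12. No 31-base word of Mcu-202 or Mcub-201 occurs in a transcript of another gene, and the expected counts of all 7 members were whole numbers (within 0.005) in both libraries, as were those of 82.3% of the 12876 genes with a mean of at least 50. In another quantification of the same libraries, deposited as transcript tables and called the second quantification here, the counts of Mcu, Letm1 and Slc8b1 were not whole.

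Mcu (chromosome 10, 59446984 to 59616692, minus strand) was read at 9.21 TPM in replicate 1 and 8.96 in replicate 2, from 675 and 645 expected counts. Its mean, 9.09 ± 0.177 TPM (SD, n = 2), stood above 47.7% of the 11720 nuclear protein-coding genes with a mean of at least 1 TPM. The pore gene was thus near the middle of the messenger RNAs detected in this tissue.

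Mcub (chromosome 3, 129914960 to 129970206, minus strand) stood at 0.940 TPM in replicate 1 and 0.760 in replicate 2, from 21 and 19 expected counts. It was the lowest member in both libraries, and the only one with a mean under 1 TPM. Within each library Mcub stood below Mcu by log2 TPM ratios of -3.29 and -3.56, a mean of -3.43 ± 0.19 (SD, n = 2), or 10.7-fold. Mcub made up 3.02% of the counts of the pore pair in replicate 1 (95% Clopper-Pearson interval 1.88 to 4.58) and 2.86% in replicate 2 (1.73 to 4.43). These intervals cover counting error only. On the TPM scale, which divides by the effective length assigned to each gene, the Mcub share was 9.26% and 7.82%. The deposited intervals of Mcub reached from 0.710 to 1.95 TPM and from 0.667 to 2.15, so that its few counts set how finely this ratio can be read.

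Smdt1 (chromosome 15, 82338959 to 82349091, plus strand), which encodes EMRE, was the highest member. It stood at 82.6 TPM in replicate 1 and 89.9 in replicate 2, from 1371 and 1453 expected counts, above 94.2% of the nuclear protein-coding genes. Smdt1 exceeded Mcu by log2 TPM ratios of 3.17 and 3.33, a mean of 3.25 ± 0.11 or 9.49-fold. In expected counts the excess was 2.14-fold. The main transcript of Smdt1, at 705 bases, is much shorter than the 2872 bases of Mcu-202, and it encodes 107 residues.

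The gatekeepers were unequal. Micu2 (chromosome 14, 57916261 to 57999262, minus strand) stood at 26.7 TPM in replicate 1 and 28.6 in replicate 2, from 1614 and 1673 expected counts. Micu3 (chromosome 8, 40307458 to 40386308, plus strand) was at 2.47 and 2.25 TPM, from 160 and 141 expected counts. Micu3 was below Micu2 by log2 TPM ratios of -3.43 and -3.67, a mean of -3.55 ± 0.17 or 11.7-fold. Against the pore gene, Micu2 was 3.04-fold higher than Mcu (log2 TPM ratio 1.61 ± 0.10) and Micu3 3.85-fold lower (-1.95 ± 0.07). On transcripts that are protein coding and complete at both ends of their annotation, Micu3 was 36.4-fold below Micu2 and 11.8-fold below Mcu. For Micu3 that scale rests on 43.3 and 40.1 expected counts of Micu3-201 in replicates 1 and 2. It leaves out the 98.0 and 76.8 of Micu3-203, a transcript described below, so these larger gaps depend on the annotation. The MICU2 and MICU3 proteins are identical at 43.0% of 412 aligned residues, and Micu2-201 and Micu3-201 share no run longer than 15 bases.

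The exchangers were unequal too. Letm1 (chromosome 5, 33739673 to 33782817, minus strand) stood at 70.5 TPM in replicate 1 and 65.2 in replicate 2, from 4353 and 4153 expected counts, the most of any member. Slc8b1 (chromosome 5, 120511168 to 120534024, plus strand), which encodes NCLX, was at 6.88 and 4.78 TPM, from 287 and 256 expected counts. Slc8b1 was below Letm1 by log2 TPM ratios of -3.36 and -3.77, a mean of -3.56 ± 0.29 or 11.8-fold. The size of this gap depended on the processing: it was 21.3-fold in the second quantification, 4.51-fold on protein-coding transcripts and 7.38-fold on those whose annotation is complete at both ends. Against the pore gene, Letm1 was 7.46-fold higher than Mcu (log2 TPM ratio 2.90 ± 0.05) and Slc8b1 1.58-fold lower (-0.66 ± 0.34). Letm1 was 2.94-fold above Mcu when only protein-coding transcripts were counted. Slc8b1 was 2.36-fold below Mcu in the second quantification and 2.52-fold below it on complete coding transcripts.

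The members ranged over 101-fold in mean TPM. From highest to lowest they were Smdt1 (86.3 ± 5.13), Letm1 (67.8 ± 3.80), Micu2 (27.7 ± 1.35), Mcu (9.09 ± 0.177), Slc8b1 (5.83 ± 1.48), Micu3 (2.36 ± 0.156) and Mcub (0.850 ± 0.127). No neighbours in this order had library values that overlapped. Smdt1 and Letm1 together held 76.8% of the summed TPM of the members in replicate 1 and 77.4% in replicate 2. The second quantification, which has no intervals, gave the same order, again with no overlap between the library values of neighbours. Its levels were 154 ± 11.1 TPM for Smdt1, 99.1 ± 4.28 for Letm1, 30.9 ± 2.56 for Micu2, 11.0 ± 0.365 for Mcu, 4.66 ± 0.235 for Slc8b1, 2.99 ± 0.0019 for Micu3 and 1.07 ± 0.314 for Mcub. The range was wider there, at 144-fold, and Smdt1 went from 9.49-fold to 14.1-fold above Mcu.

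**Figure D1:**
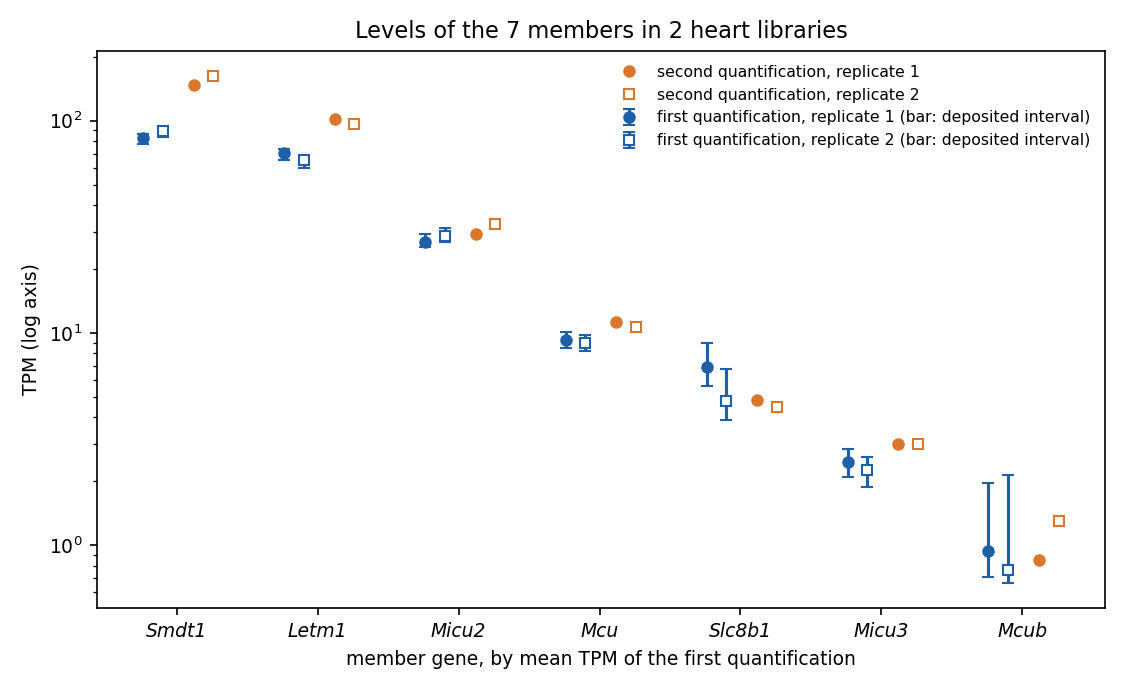
TPM of the 7 members (log axis) in each library, in the first quantification with the deposited interval of each value as a bar, and in the second quantification with no interval. Smdt1 is highest at 82.6 and 89.9 TPM and Mcub lowest at 0.940 and 0.760 in the first quantification, and the order is the same in the second.

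The TPM of a gene adds up its annotated transcripts, and the members differed in what those transcripts were. Mcu, Smdt1 and Micu2 were read mainly from 1 coding transcript. Mcu-202 held 87.2% of the TPM of Mcu in replicate 1 and 91.7% in replicate 2. Smdt1-201 held 85.0% and 89.8% of Smdt1, and most of the rest was Smdt1-204, annotated as a target of nonsense-mediated decay, at 13.3% and 9.72%. Micu2-201 held 94.4% and 93.8% of Micu2. For these genes the second quantification named the same leading transcripts, at 81.1% ± 3.77 for Mcu-202, 92.5% ± 2.24 for Smdt1-201 and 95.7% ± 2.23 for Micu2-201.

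Letm1 was divided between 3 transcripts, of which only Letm1-201, at 5272 bases, encodes the full protein of 738 residues. Letm1-201 held 34.2% of the TPM of Letm1 in replicate 1 and 37.4% in replicate 2. Letm1-205, a 642-base transcript annotated as a target of nonsense-mediated decay, held 39.8% and 36.7%, and the 747-base noncoding Letm1-206 held 23.6% and 23.7%. In expected counts the balance was different, with 80.6% and 82.5% of the counts in Letm1-201 and 9.85% and 8.48% in Letm1-205. The second quantification also put more TPM on Letm1-205 (38.5% ± 1.00) than on Letm1-201 (26.3% ± 2.01), and it gave 19.9% ± 0.212 to the noncoding Letm1-202, which held 0.410% and 0% in the first. The short forms overlap the long one: all 747 bases of Letm1-206 and 638 of the 642 of Letm1-205 are also in Letm1-201.

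The 4 bases of Letm1-205 that Letm1-201 lacks lie at an exon end, and they are shown because they are all that the decay form has beyond the sequence of Letm1-201. The Letm1-201 run joins chr5:33778608-33778627 to chr5:33769792-33769811, on the minus strand of mm10, and its 40 bases are all coding. The Letm1-205 run is chr5:33778604-33778627, and capitals mark the 4 added bases, of which the last 3 are its annotated stop codon (33778604 to 33778606).
Letm1-201: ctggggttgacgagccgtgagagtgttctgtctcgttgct
Letm1-205: ctggggttgacgagccgtgaGTAA
Counting only protein-coding transcripts whose annotation is complete at both ends, Letm1 was at 24.6 and 24.9 TPM in replicates 1 and 2 and came below Micu2, which was at 25.2 and 26.9 on the same scale. The library values of the pair were close and did not overlap. This was the only change in the order of the 7 on that scale, and the second quantification gave the same exchange, with Letm1 at 26.6 ± 0.955 TPM and Micu2 at 29.6 ± 1.76.

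Micu3 was led by Micu3-203, whose annotation has no start and so does not hold the whole protein, at 59.2% of its TPM in replicate 1 and 52.5% in replicate 2. The complete Micu3-201, which encodes 523 residues, held 29.5% and 30.9%. Of the 2488 bases of Micu3-203, 842 are shared with Micu3-201 and 1646 are its own. That is as many as lie between the annotated end of Micu3-201 (40384662) and that of Micu3-203 (40386308), on the plus strand. Whether reads in that stretch come from longer ends of Micu3-201 was not tested, so the split between these transcripts depends on the annotation. Complete coding transcripts of Micu3 came to 0.730 and 0.700 TPM, close to the 0.63 and 0.50 of Mcub on that scale.

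Slc8b1 had 7 annotated transcripts and different leaders in the 2 libraries. In replicate 1 the 378-base Slc8b1-206, with an incomplete annotation, held 47.0% of the TPM from 25.4 expected counts. In replicate 2 it held 20.4% from 7.38, and Slc8b1-201, which encodes 585 residues, led with 39.0%. The second quantification listed Slc8b1-206 at 0 in both libraries and gave Slc8b1-201 65.7% ± 9.74. Mcub was unsettled as well: Mcub-204 led in replicate 1 (34.9%) and had 0% in replicate 2, where Mcub-201 held 66.2%, from 8.32 and 16.6 expected counts. In all, 4 of the 7 members had the same leading transcript in both libraries and both quantifications: Mcu, Smdt1, Micu2 and Micu3.

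Over 10725 nuclear protein-coding genes with at least 2 transcripts and a mean of at least 1 TPM, complete coding transcripts held a median of 80.7% of a gene's TPM. Micu2 (94.1%), Mcu (92.8%) and Smdt1 (87.8%) were above that median. Slc8b1 (59.3%), Letm1 (36.5%) and Micu3 (30.3%) were below it, with 7.97% of those genes lower than Letm1 and 5.61% lower than Micu3. In the second quantification, where the median was 75.9%, Letm1 (26.9%) and Micu3 (37.3%) were again low, and Slc8b1 was at 91.2%.

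**Figure D2:**
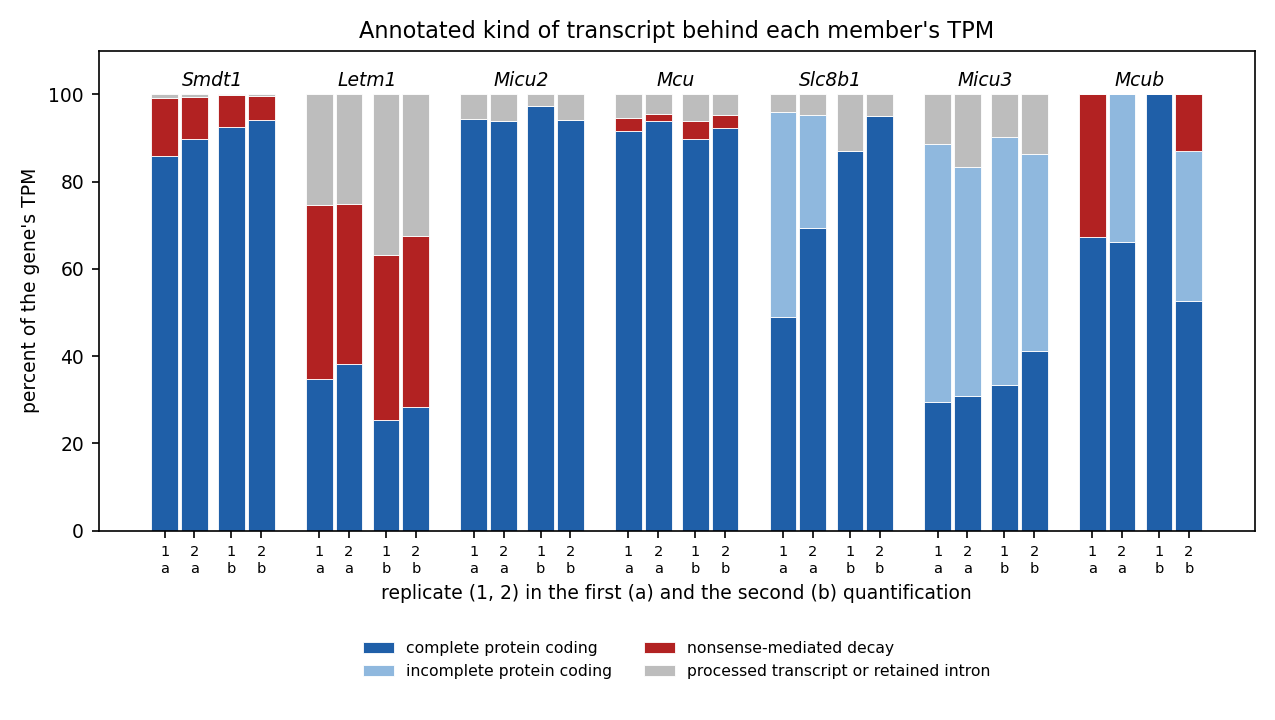
Percent of each member's TPM by annotated kind of transcript, with 1 bar for each library and quantification. Complete coding transcripts hold most of Micu2, Mcu and Smdt1 in every bar, and from 25.4% to 38.3% of Letm1.

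The levels of the members were compared between the libraries. A difference was called by a rule of size, not a test: at least 1 in log2(TPM + 1), so 2-fold, after the median difference over genes was removed, on at least 50 expected counts in the mean, and with deposited intervals apart from each other. By this rule 45 of 12876 genes, or 0.349%, differed, and 0 of the 6 members with enough counts did. With so small a share over all genes, 0 of 6 does not set the members apart. Mcub, with its 21 and 19 counts, was not eligible. The deposited intervals of each of the 7 members overlapped between the libraries. The share of all genes with such an overlap is not given here, so this does not set the members apart either.

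The largest difference was that of Slc8b1, at 0.47 on the log2(TPM + 1) scale, replicate 1 being higher. That was more than in 95.8% of the genes eligible. In CPM, counts scaled to library depth, the libraries were close, at 7.93 and 7.45, a ratio of 1.06 with a 95% exact counting interval of 0.896 to 1.26. The effective length deposited for Slc8b1 was 1484 bases in replicate 1 and 1972 in replicate 2, so similar counts were divided by unlike lengths. Slc8b1-206 is the shortest transcript with more than 1 count. Without that transcript and the other incomplete or noncoding ones, Slc8b1 stood at 3.38 TPM in replicate 1 and 3.32 in replicate 2.

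For the other members the differences on that scale were 0.17 for Mcub, 0.14 for Letm1, 0.12 for Micu3 and 0.06 for Mcu, replicate 1 being higher, and -0.07 for Micu2 and -0.09 for Smdt1. The difference of Mcub turned to -0.26 in the second quantification, and the other 6 members kept their direction there. The median size over the genes eligible was 0.11. In CPM, replicate 1 was at 0.896 of replicate 2 for Smdt1 (0.831 to 0.965) and at 0.916 for Micu2 (0.855 to 0.981), with intervals for counting error that leave out a ratio of 1. No median over genes was removed from these ratios, and in log2(CPM + 1) that median was -0.048. A ratio of 1 is therefore not that of a typical gene, and the intervals were not set against the median or against those of other genes. The airway epithelium markers, at 149.7 and 9.25 TPM in sum, were higher in replicate 1. The 3 red blood cell markers, at 24080.9 and 18474.5 TPM in sum, were also higher in replicate 1, and 0 of the 3 met the rule of size. The markers of brown fat were higher in replicate 2: Ucp1 stood at 32.6 and 47.8 TPM and Cidea at 32.5 and 39.9, and 0 of the 2 met the rule of size. The differences of Smdt1 and Micu2 were smaller than the median size. The part of any of these cells or tissues in the differences of the members was not tested.

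**Figure D3:**
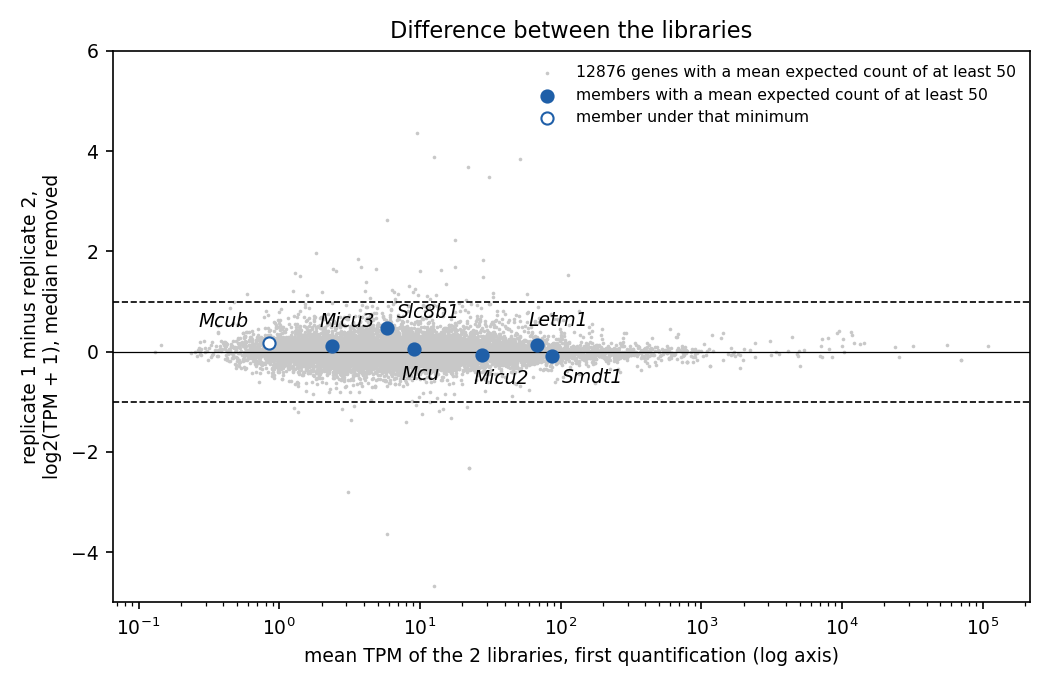
Difference between the libraries in log2(TPM + 1), median removed, against mean TPM (log axis) for 12876 genes in grey and the 7 members in blue; dashed lines mark a difference of 1. The members lie between -0.09 (Smdt1) and 0.47 (Slc8b1), inside the dashed lines.

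Other genes of mitochondrial calcium handling were taken from 4 lists, and 38 of their 40 genes had a mean of at least 1 TPM and enough counts. None of these 38 met the rule of size in either direction, beside 0.349% of all genes eligible. The list of uniporter regulators and assembly held 8 genes, among them inner membrane scaffolds and proteases that are not particular to the uniporter. Their median mean level was 31.3 TPM. The 3 highest were Phb2 (136 TPM in replicate 1 and 157 in replicate 2) and Phb (142 and 146.5), the prohibitin scaffolds of the inner membrane, and Afg3l2 (58.7 and 58.9), a subunit of the protease that clears excess EMRE. The prohibitins had counts that were not whole numbers, so some of their reads were divided with other features. Smdt1 was thus higher than Afg3l2 in both libraries, and Mcu, at 9.21 and 8.96, lower than the list's median.

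The list named other inner membrane cation and calcium-linked carriers holds 10 genes, not all of them of the inner membrane. Its median was 3.75 TPM, and 8 of its genes reached a mean of 1 TPM. The exceptions were Slc8a2 (0.345) and Slc8a3 (0.145). Ghitm, an inner membrane protein proposed as a calcium-proton exchanger, was at 237 and 235 TPM, above Letm1 in both libraries. Tmem65, an inner membrane protein tied to sodium-calcium exchange, was at 51.3 and 57.5 TPM, against 6.88 and 4.78 for Slc8b1. Slc8a1, the sodium-calcium exchanger of the plasma membrane, was at 154 and 185 TPM.

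The remaining lists had higher medians. The 11 genes of calcium release and contact sites had a median of 155 TPM, led by Ryr2 (420 TPM in replicate 1 and 400.2 in replicate 2), the calcium release channel of the sarcoplasmic reticulum, Vdac1 (392 and 389), the outer membrane channel, and Mfn2 (260 and 268), a tether between mitochondria and the reticulum. The list named calcium-sensitive matrix targets holds 11 enzymes, carriers and regulators, not all of which sense matrix calcium. Its median was 108 TPM, and its highest genes were the dehydrogenase subunits Ogdh (625 and 604), Pdha1 (419 and 421) and Idh3b (284 and 295). The members had medians of 9.21 and 8.96 TPM in replicates 1 and 2. In the first quantification Smdt1, the highest of them, was below the median of both lists. The median over the nuclear protein-coding genes with a mean of at least 1 TPM was 9.77. The second quantification changed the place of Smdt1 against the matrix targets. Its library values there, 147 and 162 TPM, exceeded the 122 and 143 of Ppif, the middle gene of that list. Smdt1 remained below Vdac3, the middle gene of the release list (181 and 199).

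**Figure D4:**
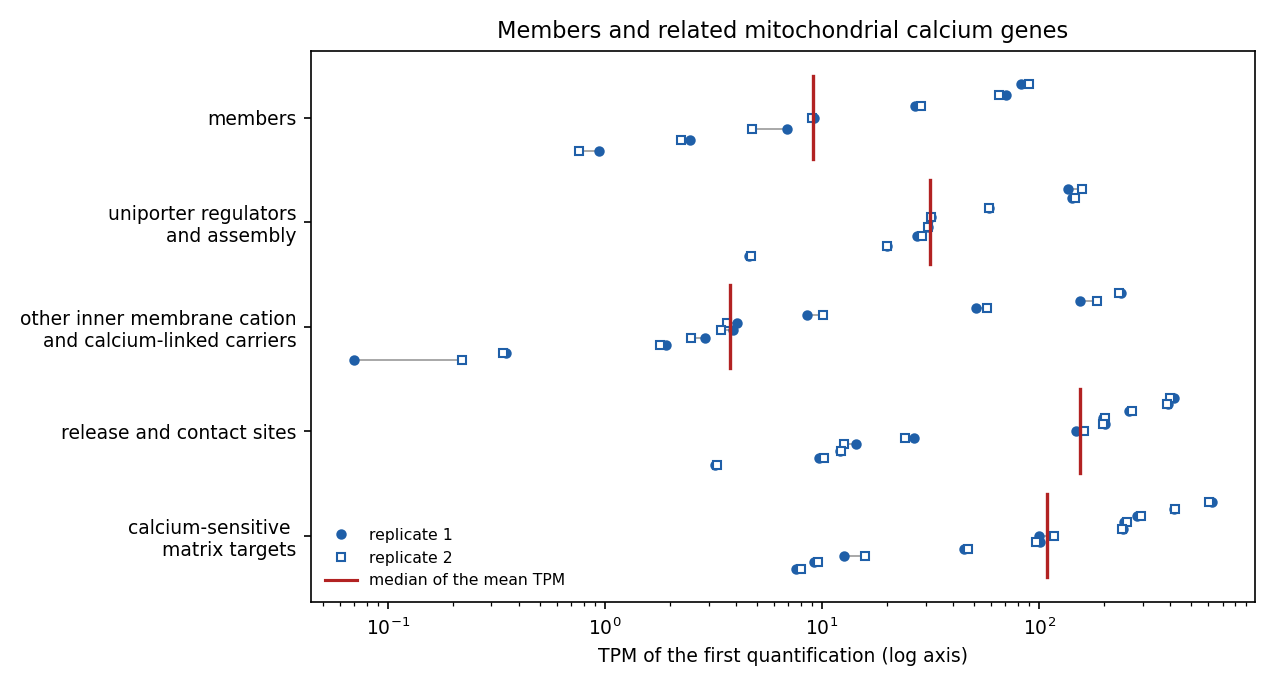
TPM of the first quantification (log axis) of each member and of each gene of 4 related lists, with replicate 1 as a filled circle, replicate 2 as an open square and a bar at the median of the mean TPM. The medians are 9.09 for the members, 31.3, 3.75, 155 and 108 for the lists from top to bottom.

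The 2 genes nearest in level to each member were found among 21931 nuclear protein-coding genes by the Euclidean distance of log2(TPM + 1) over 4 values, those of 2 libraries in 2 quantifications. Gpc6 and Rnf25 were nearest to Mcu (distances 0.0360 and 0.0425), Ankrd45 and Crispld1 to Mcub (0.143 and 0.158), and Lynx1 and Rab11a to Smdt1 (0.0692 and 0.131). Kdelr2 and Strip2 were nearest to Micu2 (0.0311 and 0.0345), Uba6 and Gas8 to Micu3 (0.0602 and 0.0664), Ivd and Gnpat to Letm1 (0.113 and 0.136), and Slc2a12 and Pold1 to Slc8b1 (0.170 and 0.175). With 1 tissue this measures likeness of level only.

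Several members share their place in the genome with other genes, which had few or no counts. On the same strand, Pheta2 and n-R5s41 overlap Smdt1, and Pheta2 was at 0.850 and 0.610 TPM from 51 and 44 counts. On the opposite strand, Gm10322 overlaps Mcu, Fgf20 and Mir7666 overlap Micu3, and the pseudogenes Gm10059 and Gm30708 overlap Letm1. Apart from Pheta2, these genes had 0 expected counts in both libraries, except 1 count of Fgf20 in replicate 2. Of the 31-base words of Micu3-201, 9.09% also occur in transcripts of Fgf20 or Mir7666 when strand is ignored. For the main transcripts of Slc8b1 and Letm1 the shares found in other genes were 3.56% and 0.210%, and for Smdt1 and Micu2 they were 0%.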

How the data were processed

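Total RNA-seq of 2 heart libraries was analysed from the processed tables. Per the readme files, the authors used mm10 and GENCODE M21. Aligner, quantification programs and program versions were not given in the sources used here. Columns of the first quantification are those RSEM writes and those of the second are those kallisto writes. Per the file headers, the authors' first tables give an expected count, TPM, posterior mean TPM, the bounds of its interval (a score whose level is not stated) and each transcript's percent of the gene's TPM. The deposited second tables give an estimated count and TPM per transcript, summed here per gene.

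Members were matched by symbol and gene identifier. Values are given per library and as mean ± SD. Ratios are log2 TPM ratios within a library, and differences use log2(TPM + 1). Count intervals are exact Clopper-Pearson at 95%, scaled by the libraries' annotated totals, and cover counting error only. Marker and related genes came from lists, and the 3 genes of highest mean TPM in each related list, with any that met the rule of size, were named. A gene of the list of regulators is not reported here and is in none of the counts of that list. The members and lists were chosen with earlier results of these data known. Sequences, protein lengths and coordinates came from GENCODE M21, and identity from global alignment with biopython 1.88. Tables were handled in Python 3.11.15 with pandas 2.3.3 and numpy 2.4.6, intervals came from scipy 1.17.1, and matplotlib 3.10.9 drew the figures. Alternatives tried were the second quantification, posterior means (for levels only), counts with no length correction and coding transcripts only. Others were other pseudocounts, no count minimum, no median removal and leaving out a library.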

Additional observations from a re-analysis of the deposited data

How the results depend on the processing

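All 4 ratios between members kept their sign under every alternative run, and 0 members met the rule of size in each. Posterior means were run for the levels only, not for the ratios. In replicates 1 and 2 they put Mcub at 1.29 and 1.36 TPM and Mcu at 9.3 and 9, a smaller gap than the main one. The sizes of the ratios moved past the library SD in these cases, and the cause was not tested. The second quantification gave log2 ratios of 3.81 for Smdt1/Mcu, -3.37 for Micu3/Micu2 and -4.41 for Slc8b1/Letm1. Expected counts with no length correction gave -5.05 for Mcub/Mcu, 1.10 for Smdt1/Mcu and -3.97 for Slc8b1/Letm1. A pseudocount of 1 gave -2.45 for Mcub/Mcu, 3.11 for Smdt1/Mcu and -3.09 for Micu3/Micu2. Protein-coding transcripts alone gave -2.17 for Slc8b1/Letm1. Complete protein-coding transcripts, an alternative chosen after seeing the data, gave -3.91 for Mcub/Mcu, -5.19 for Micu3/Micu2 and -2.88 for Slc8b1/Letm1. Over single libraries the ratios ranged from -3.56 to -3.29 for Mcub/Mcu, 3.17 to 3.33 for Smdt1/Mcu, -3.67 to -3.43 for Micu3/Micu2 and -3.77 to -3.36 for Slc8b1/Letm1.

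The rule called 45 of 12876 genes, but 89 of the 12876 with a pseudocount of 0.1 and 46 with no median removed. It called 65 of 12871 in the second quantification and 52 of 55536 with no count minimum. The second quantification has no intervals of its own, so the 65 is not directly comparable with the 45. The level of Mcub was 1.33 TPM as a posterior mean, against 0.850, and its 21 and 19 counts limit every value given for it. Levels of 6 members moved by more than the SD in the second quantification. No paired analysis was possible because the labels give 1 group only.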

Other observations

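Levels were compared within 3 gene families of the related lists, in 1 of them against the member Letm1. The plasma membrane exchanger Slc8a1 had 20532 and 22930 expected counts in replicates 1 and 2, its paralog Slc8a2, known from brain, 49 and 40, and Slc8a3, known from brain and skeletal muscle, 7 and 11. Letm2, a paralog of Letm1, was at 2.89 and 2.48 TPM, against 70.5 and 65.2 for Letm1. Of the inositol trisphosphate receptors, which release calcium from the reticulum, Itpr1 was at 26.5 and 24.03 TPM, Itpr2 at 14.4 and 12.6 and Itpr3 at 3.21 and 3.28, all below Ryr2. The library values of Slc8a1, Letm1 and Itpr1 did not overlap those of the other genes of their families.

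Among regulators of the pyruvate dehydrogenase complex, the calcium-stimulated phosphatase Pdp1 stood at 12.6 TPM in replicate 1 and 15.7 in replicate 2, and Pdp2 was at 7.61 and 8.04. Ppif, which encodes cyclophilin D, a regulator of the permeability transition pore, was at 99.5 and 117 TPM. The voltage-dependent anion channels were in the order Vdac1 (392 and 389 TPM), Vdac2 (196 and 201) and Vdac3 (148 and 162), with no overlap between the libraries of neighbours. Expected counts of Vdac2 and Vdac3 were not whole numbers, so some of their reads were divided with other features.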
